A study of Mus musculus with 12 samples.

Results

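The contractile smooth muscle genes are 10 genes that encode the filaments of smooth muscle cells and their closest accessory proteins, of 33250 gene symbols measured. They are Acta2, Actg2, Myh11, Myl9, Mylk, Tagln, Cnn1, Lmod1, Smtn and Des, and all 10 were among the 19325 genes that passed the low-count filter. The genes were named as a list by their function, but the list was picked because earlier results of these same animals had shown them higher in conditional knockout (cKO) than in wild-type (WT) hippocampus. Their difference between genotypes is therefore described below and not tested. Polyadenylated RNA of bulk hippocampus was sequenced from 12 male mice, 6 cKO and 6 WT. In the cKO mice, the microRNA cluster miR379-410 is deleted by Cre recombinase in Emx1-positive cells, and the WT mice carry no knockout according to their labels. The sources used here do not give the age of the mice. Emx1 encodes a homeobox factor that marks a lineage that includes, but is not limited to, cortical and hippocampal glutamatergic neurons. Cells outside that lineage, and any cell without Cre, keep the cluster.

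Smooth muscle cells wrap the arteries and arterioles of the brain and set their width. Calcium bound to calmodulin activates myosin light chain kinase (Mylk), which phosphorylates the regulatory light chain (Myl9), and smooth muscle myosin (Myh11) then pulls on filaments of smooth muscle actin (Acta2). Many of these genes are switched on together by serum response factor and its partner myocardin, which bind a short DNA element called the CArG box, and they are established markers of mature, contractile smooth muscle.

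Library totals ranged from 44803793 to 51095816 counts in cKO and from 42360624 to 50804084 counts in WT, and the 10 genes took between 0.00799% and 0.0188% of a library. The library labelled cKO 1 went against its label. B830012L14Rik, a long non-coding RNA just upstream of the cluster, was at 0.788 CPM (a gene's count divided by the library total and brought to a common total, with scaling between libraries by the TMM method) in cKO 1, against 17.4 to 25.8 CPM in cKO 2 to 6 and 0.310 to 0.865 CPM in WT. Emx1 was at 9.14 CPM in cKO 1, against 5.91 to 6.84 CPM in cKO 2 to 6 and 8.38 to 9.60 CPM in WT. The members' fold changes, the counts over the list and the median correlation are therefore also given without that library. The libraries also differed in choroid plexus RNA: Ttr, the transthyretin gene of choroid plexus epithelium, was at 28.3 CPM in cKO 4, 49.8 CPM in WT 2 and 498 CPM in WT 3, and at 2222 to 7657 CPM in the other 9 libraries. Whether cKO 4, WT 2 and WT 3 also hold a different share of vessels was not tested. The members' edgeR counts and the lists' medians are also given without them.

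Acta2, the actin of vascular smooth muscle, averaged 35.0 ± 6.44 CPM in cKO and 17.9 ± 4.66 CPM in WT (SD, n = 6 each). The 6 cKO libraries, 1 to 6, read 26.0, 30.9, 43.4, 41.1, 34.4 and 34.1 CPM, and the 6 WT libraries read 19.3, 24.3, 13.2, 14.6, 13.9 and 21.9 CPM. Every cKO library lay above every WT library, with the nearest pair at 26.0 CPM in cKO 1 and 24.3 CPM in WT 2. The log2 fold change was 0.97 ± 0.16 (SE), or 1.96-fold. In bulk tissue, more smooth muscle cells and more RNA per smooth muscle cell cannot be told apart, here and for every gene below. The 250 bases before the RefSeq transcription start of Acta2 (GRCm38.p6, chr19:34255374-34255623, minus strand) are shown because they hold matches to the CArG box. Myl9, the regulatory light chain of smooth muscle and non-muscle myosin, had the only other such matches among the 7 members with a window in the RefSeq table, and its window is shown for comparison (chr2:156775214-156775463, plus strand). Capitals mark 10-base matches to the CArG box with at least 5 of its 6 inner bases A or T.
Acta2: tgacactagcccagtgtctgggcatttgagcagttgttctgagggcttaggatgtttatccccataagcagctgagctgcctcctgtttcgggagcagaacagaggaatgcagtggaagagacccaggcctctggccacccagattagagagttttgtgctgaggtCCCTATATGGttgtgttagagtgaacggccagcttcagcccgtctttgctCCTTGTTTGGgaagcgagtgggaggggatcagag
Myl9: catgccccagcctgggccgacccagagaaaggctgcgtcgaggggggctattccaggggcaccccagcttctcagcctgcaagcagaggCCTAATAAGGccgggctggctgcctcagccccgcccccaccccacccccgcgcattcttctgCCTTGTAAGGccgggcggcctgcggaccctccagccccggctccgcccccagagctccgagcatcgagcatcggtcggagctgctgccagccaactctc

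Windows of 300 bases, from 250 before to 50 after the start, were found in the RefSeq table for 7 of the 10 genes, and Tagln, Myh11 and Actg2 had none. A full CArG box, on either strand and with all 6 inner bases A or T, stood in 1 of these 7 windows, that of Myl9 at bases -161 to -152 from the start. It stood in 1.63% of all 32851 windows in the table. A match with at least 5 of 6 inner bases A or T stood in 2 of the 7, and in 9.98% of all windows. Acta2 had its matches at -84 to -75 and at -34 to -25, and the second match of Myl9 lay at -99 to -90. The windows of Cnn1, Lmod1, Mylk, Des and Smtn held no such letters, which says nothing about elements elsewhere in those genes.

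The motor proteins come next. Myh11, the myosin heavy chain of smooth muscle, averaged 33.6 ± 6.94 CPM in cKO and 18.7 ± 5.43 CPM in WT, a log2 fold change of 0.84 ± 0.18 (SE). Its cKO libraries read 25.0, 29.8, 42.4, 41.6, 31.1 and 31.5 CPM, and its WT libraries 20.7, 28.3, 14.8, 13.8, 15.4 and 19.4 CPM. The genotypes overlapped at Myh11 through a single pair, since WT 2 stood above cKO 1. Myl9 ranged from 19.3 to 25.9 CPM in cKO and from 12.3 to 17.1 CPM in WT, with no overlap and a log2 fold change of 0.59 ± 0.10 (SE). Mylk, the kinase that switches the motor on, ranged from 26.2 to 32.5 CPM in cKO and from 18.6 to 24.3 CPM in WT, again with no overlap, and had a log2 fold change of 0.41 ± 0.07 (SE). Actg2, the actin of gut and other visceral smooth muscle, was close to the limit of detection, with 7 to 19 counts per library in cKO and 0 to 11 in WT. Its level was 0.298 ± 0.093 CPM in cKO and 0.098 ± 0.10 CPM in WT, with 2 WT libraries at 0. The groups overlapped, and the log2 fold change of 1.62 ± 0.56 (SE) has the widest error of the 10.

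Among the proteins that bind and steady the actin filaments, Tagln (SM22, an actin-binding protein of the calponin family) averaged 15.7 ± 3.46 CPM in cKO and 8.75 ± 2.18 CPM in WT. The cKO libraries read 12.8, 12.1, 18.8, 20.9, 14.7 and 14.8 CPM and the WT libraries 11.3, 10.9, 5.97, 7.53, 7.17 and 9.67 CPM. The groups did not overlap, though cKO 2 and WT 1 were less than 1 CPM apart, and the log2 fold change was 0.84 ± 0.17 (SE). Cnn1, the smooth muscle calponin that slows the actin-activated myosin motor, ranged from 1.36 to 2.59 CPM in cKO and from 0.415 to 1.06 CPM in WT. Its log2 fold change, 1.17 ± 0.21 (SE), or 2.25-fold, is the highest of the 9 members with at least 19 counts in every library, and within its error of that of Acta2. Lmod1, a leiomodin that starts new actin filaments, ranged from 2.37 to 3.87 CPM in cKO and from 1.27 to 1.81 CPM in WT, with a log2 fold change of 0.87 ± 0.14 (SE). Smtn, which encodes smoothelin, an actin-associated protein of fully differentiated smooth muscle, was at 13.2 ± 1.98 CPM in cKO and 10.1 ± 0.608 CPM in WT, and its log2 fold change of 0.39 ± 0.09 (SE) lay within its error of that of Mylk. Cnn1, Lmod1 and Smtn had no overlap between genotypes. Des, the intermediate filament desmin, ranged from 2.83 to 5.44 CPM in cKO and from 1.99 to 3.48 CPM in WT, with a log2 fold change of 0.63 ± 0.17 (SE). WT 1 and WT 2 lay within the cKO range of Des.

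**Figure D1:**
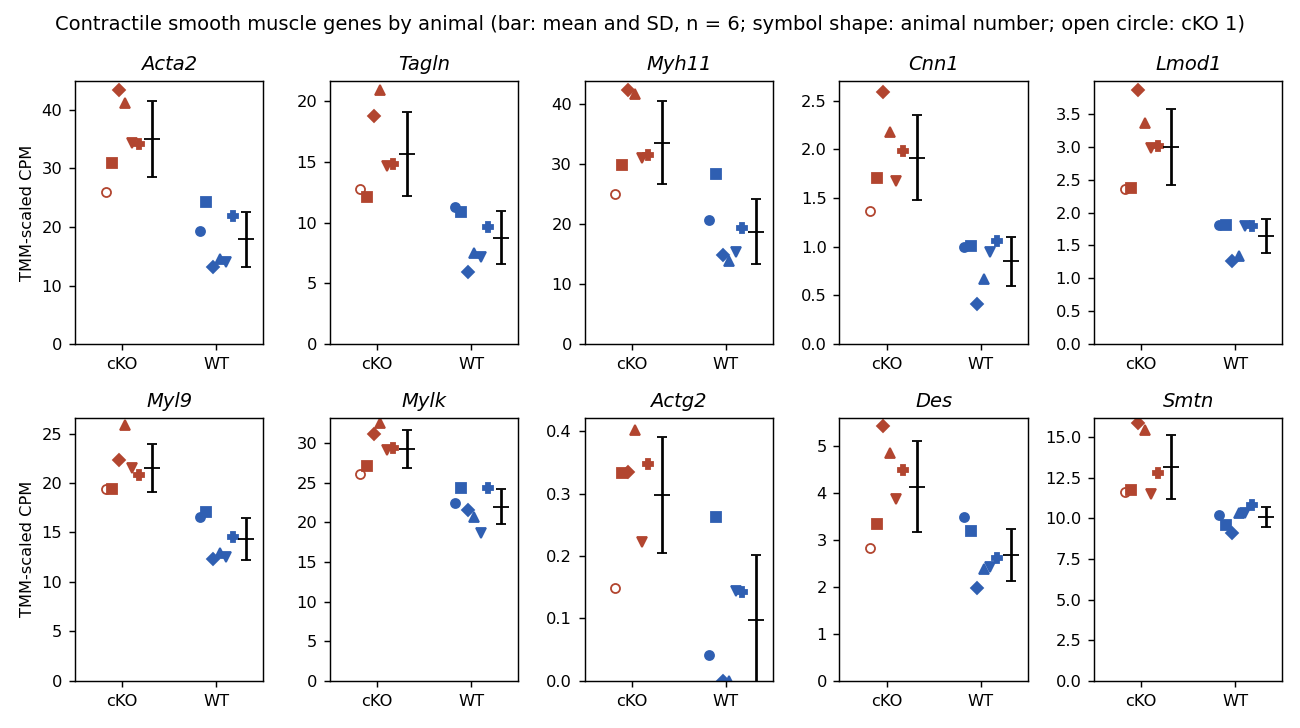
TMM-scaled CPM (vertical axis, from 0) of each of the 10 contractile genes in 6 cKO and 6 WT animals; each symbol is 1 animal, the shape gives its number within the genotype, the open circle is cKO 1, and the bar is the mean with its SD. The groups are apart in 7 panels and overlap at Myh11, Des and Actg2, with cKO 3 or cKO 4 at the top of every panel.

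Counted over the list, all 10 fold changes were above 0, with a median log2 fold change of 0.84, beside 0.01 over all 19325 genes tested. Every cKO library was above every WT library at 7 of 10 members, beside 0.181% of all genes tested. In edgeR's quasi-likelihood test 0 of 10 members had an adjusted p below 0.05, beside 0.0103% of all genes, which is 2 genes. At an unadjusted p below 0.05 and higher in cKO, edgeR counted 10 of 10 members, beside 3.2% of all genes. DESeq2 gave 8 of the 9 members with an adjusted p as higher in cKO, beside 0.126% of the genes it adjusted; Des did not pass and Actg2 received no adjusted p. Limma-voom passed 0 of 10 members after adjustment, beside 0 of all 19325 genes. Since the members were picked on this contrast, these counts describe them and support nothing further.

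Without the library labelled cKO 1, the groups were apart at 8 of 10 members, Myh11 being the addition, and the median log2 fold change was 0.90, beside 0.457% of all genes apart in the same way. All 10 members were again higher at an unadjusted edgeR p below 0.05, beside 637 of the 19457 genes tested in that set. None of the members passed after adjustment, beside 6 of all genes. Acta2 then averaged 36.8 ± 5.25 CPM in cKO 2 to 6 (SD, n = 5), with a log2 fold change of 1.03. The log2 fold changes of the others without cKO 1 were 1.74 for Actg2, 1.25 for Cnn1, 0.92 for Lmod1, 0.91 for Myh11, 0.89 for Tagln, 0.71 for Des, 0.61 for Myl9, 0.43 for Mylk and 0.41 for Smtn. Without cKO 4, WT 2 and WT 3, the libraries low in choroid plexus RNA, the groups were apart at 9 of 10, all but Des, and the median was 0.75, beside 0.97% of all genes. All 10 were higher at an unadjusted edgeR p below 0.05 there too, beside 459 of the 19591 genes tested in that set. After adjustment 0 members and 0 of all genes passed. DESeq2 was not run on either smaller set. In cKO 1 alone, 10 of 10 members lay above the WT mean on the log2 scale, by 0.10 for Des to 0.83 for Actg2, with Acta2 at 0.58. The members were picked with cKO 1 counted among the cKO animals, so this cannot decide its genotype. The share of all genes above the WT mean in cKO 1 is not given here. That library was also the lowest of its genotype at 8 of 10 members, 0.49 below the mean of cKO 2 to 6 at Acta2 and 0.48 below it at Myh11.

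Levels between members were compared per kilobase of the principal transcript in the GENCODE annotation of GRCm38. Myl9 (19.1 ± 2.16 CPM per kilobase in cKO, 12.7 ± 1.87 in WT) and Acta2 (17.2 ± 3.16 in cKO, 8.78 ± 2.29 in WT) stood at the top. They were within 1 SD of each other in cKO and further apart than that in WT. Tagln came next with 9.83 ± 2.17 CPM per kilobase in cKO and 5.49 ± 1.36 in WT. Myh11 had 5.21 ± 1.07 CPM per kilobase in cKO and 2.90 ± 0.842 in WT, where it could not be ordered against Smtn at 2.97 ± 0.180 or Mylk at 2.81 ± 0.283. In cKO, Smtn at 3.89 ± 0.584 and Mylk at 3.74 ± 0.303 stood below Myh11 and could not be ordered against each other. Des was at 1.37 ± 0.322 in cKO and 0.888 ± 0.183 in WT. Cnn1 (0.805 ± 0.182 in cKO, 0.357 ± 0.106 in WT) and Lmod1 (0.758 ± 0.147 in cKO, 0.415 ± 0.065 in WT) were within 1 SD of each other in each genotype. Actg2 was last, at 0.223 ± 0.070 in cKO and 0.074 ± 0.078 in WT. With the merged length of all annotated exons, a choice made after the data were seen, Cnn1 (0.70 in cKO) fell below Lmod1 (0.758 in cKO).

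The ratio of one member to another shows how evenly they moved. Acta2 over Myh11 lay between 0.988 and 1.11 in cKO and between 0.859 and 1.13 in WT, so over 12 animals its highest value was 1.32 times its lowest, against 3.29 times for Acta2 alone. Acta2 over Tagln ranged from 1.97 to 2.54 in cKO and from 1.70 to 2.27 in WT. Acta2 over Mylk was further from constant, with 0.994 to 1.40 in cKO and 0.612 to 1.00 in WT, a span of 2.28 times. The ratio of Acta2 to Smtn spanned 2.21 times, to Myl9 1.82, to Des 1.67 and to Tagln 1.49. Actin and myosin heavy chain thus kept nearly 1 proportion from animal to animal, and the kinase, like Smtn, did not follow them by the same factor. In bulk tissue, RNA of these genes from other cells cannot be told apart from that of smooth muscle.

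If every label is right, covariation between animals of 1 genotype does not use the contrast on which the members were picked. The library labelled cKO 1 was at WT level for B830012L14Rik and Emx1, so values that include it can carry part of that contrast. To describe covariation, each genotype's mean of log2 CPM was subtracted and the deviations of the 12 animals were correlated. The median Pearson r over the 45 pairs of members was 0.77, with a range of 0.31 to 0.95 and all 45 pairs above 0. Over the pairs formed by a member and any other gene tested, the median was -0.01. Taken alone, cKO animals with cKO 1 included gave a median of 0.895 (0.55 to 0.98) and WT animals 0.70 (-0.06 to 0.96). Without cKO 1 the median over the other 11 animals was 0.73. The members share libraries, and each r across pairs of genes is a description without a test.

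**Figure D2:**
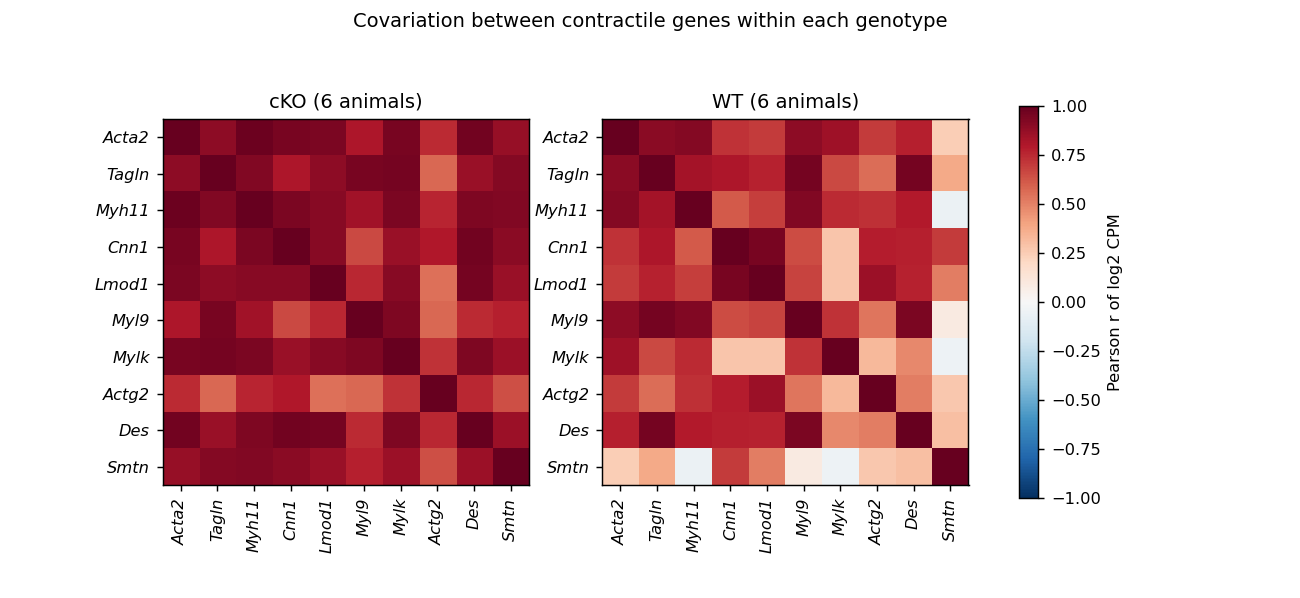
Pearson r of log2 CPM between each pair of the 10 contractile genes over 6 cKO animals (left) and 6 WT animals (right), on a colour scale from -1 to 1. In cKO all 45 pairs are above 0, with a median of 0.895; in WT the median is 0.70, 43 of 45 pairs are above 0, and the row of Smtn is the palest.

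Acta2 was correlated with each of the other 9 members in turn over 12 animals, with two-sided permutation of the deviations within genotype and adjustment over the 9 relations. The 12 animals include cKO 1, and the p-values were not recomputed without it. Myh11 was closest (Pearson r = 0.94, permutation p = 0.00025, adjusted 0.00225; Spearman rho = 0.93, p = 0.00035). Tagln (r = 0.90, adjusted permutation p = 0.00239; rho = 0.83, adjusted 0.00413) and Mylk (r = 0.89, adjusted permutation p = 0.00239; rho = 0.88, adjusted 0.00259) followed. Myl9 had r = 0.87 and rho = 0.89, Des r = 0.84 and rho = 0.84, Cnn1 r = 0.79 and rho = 0.83, and Lmod1 r = 0.79 and rho = 0.83, each with an adjusted permutation p of 0.00298 or less for r and 0.00413 or less for rho. Actg2 missed the threshold (r = 0.68, permutation p and adjusted p = 0.05; rho = 0.61, adjusted 0.0911). Smtn passed by Pearson r alone (r = 0.55, permutation p = 0.0422, adjusted 0.0475; rho = 0.45, adjusted 0.111).

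Leaving out WT 2 and cKO 1, the 2 animals farthest from the median of Acta2, gave r of 0.91 with Myh11, 0.90 with Tagln, 0.84 with Mylk, 0.82 with Myl9 and 0.80 with Des. Cnn1 and Lmod1 had 0.77 each, Smtn 0.66 and Actg2 0.52. The deviations were still those from the genotype means with all animals included, and were not centred again. These r values can therefore carry part of the contrast between genotypes. Within cKO alone, Acta2 and Myh11 had r = 0.98 (exact permutation p = 0.00278, n = 6), and within WT r = 0.92 (exact permutation p = 0.0167, n = 6). The cKO value includes cKO 1, and the 5 animals left without it are too few for a correlation. For Smtn the genotypes differed in value, with r = 0.87 in cKO (exact permutation p = 0.0306, n = 6) and r = 0.24 in WT (exact permutation p = 0.603, n = 6), and that difference was not tested. Its spread in WT was narrow, from 9.10 to 10.8 CPM.

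Each member was also set against the mean standardized deviation of the other 9. Acta2 (r = 0.94), Tagln (0.94), Myh11 (0.92) and Des (0.90) lay closest to the common pattern. Lmod1 (0.88), Myl9 (0.86) and Cnn1 (0.85) came next, then Mylk (0.75), Actg2 (0.64) and Smtn (0.63). Members that varied more between animals of a genotype also had larger fold changes between genotypes. The within-genotype SD of log2 CPM ran from 0.13 for Mylk and 0.16 for Smtn to 0.42 for Cnn1 and 0.91 for Actg2. Its Spearman rho with the fold change was 0.85 over the 10 genes and 0.80 without Actg2, as a description across genes that share their animals. The members were picked on these fold changes, and the SD includes cKO 1. If that library is at WT level, its distance from the other cKO animals adds to the SD in step with the fold change. The relation was not recomputed without cKO 1.

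A few animals recurred at the extremes. In cKO the highest library was cKO 3 for 6 members and cKO 4 for 4, and the lowest was cKO 1 for 8. In WT the highest was WT 2 for 5, WT 6 for 3 and WT 1 for 2, and the lowest was WT 3 for 8. The highest of the WT libraries in Acta2, WT 2, and the second highest of the cKO libraries, cKO 4, were both among the 3 low in choroid plexus RNA, and the third of these, WT 3, was the lowest of all 12 in Acta2.

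**Figure D3:**
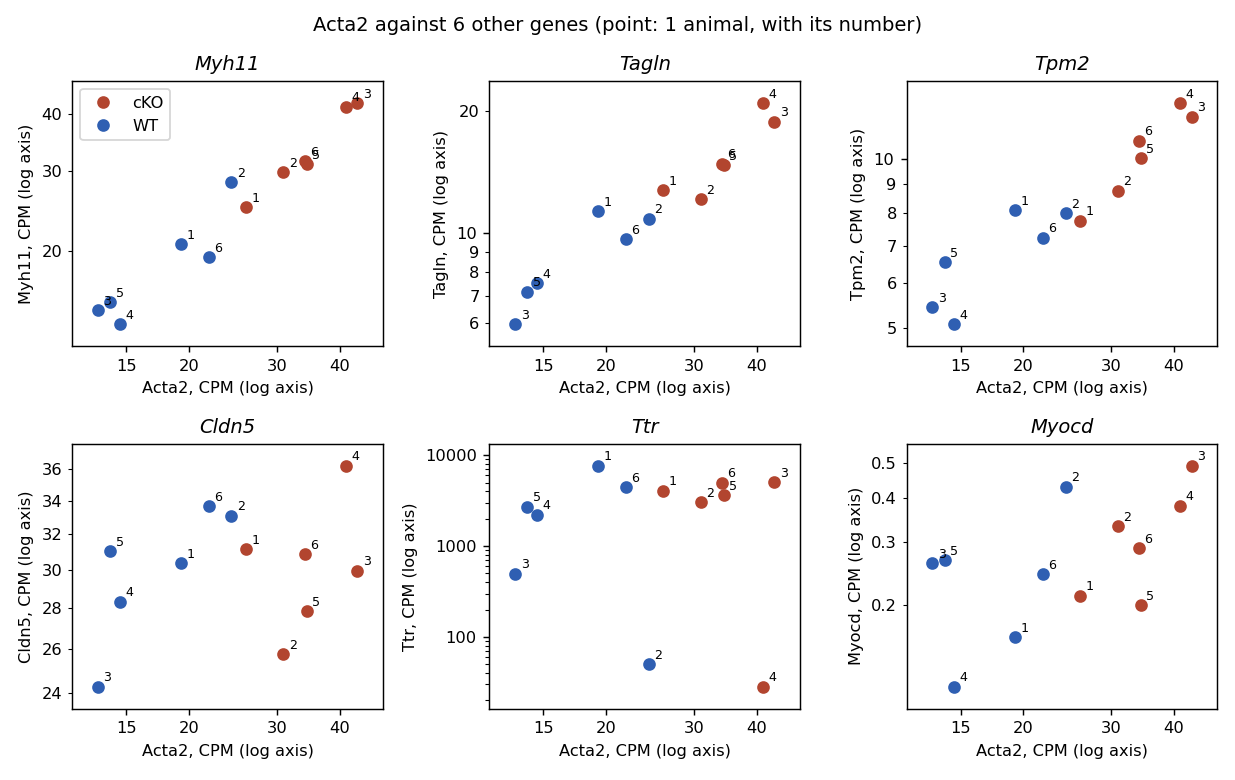
CPM of 6 genes (vertical log axes) against CPM of Acta2 (horizontal log axis) in 6 cKO and 6 WT animals; each point is 1 animal with its number. Myh11, Tagln and Tpm2 rise with Acta2 within each genotype. Ttr is at 28.3 CPM in cKO 4 and 49.8 CPM in WT 2, both high in Acta2 for their genotype. It is also low, at 498 CPM, in WT 3, the library lowest in Acta2. Over the 9 libraries high in Ttr, its within-genotype r with Acta2 is 0.64.

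Of the 15536 other genes with a mean of at least 1 CPM, the 8 whose deviations were most like the members' mean pattern over 12 animals were Tpm2 (r = 0.95), Flna (0.88), Tbxa2r (0.88), Qtrt2 (0.88), Adap2 (0.87), Rtel1 (0.87), Cd300a (0.86) and Rasl12 (0.86). Tpm2 encodes a tropomyosin that lies along the actin filament, Flna a filamin that cross-links actin, and Tbxa2r the receptor for thromboxane, a constrictor of vessels. The 8 are the top of a ranking over many genes, so their r values are a description. Between genotypes they ranged from a log2 fold change of 0.61 ± 0.14 (SE) at Tpm2 to -0.03 ± 0.04 (SE) at Qtrt2, and none of the 8 passed in edgeR at an adjusted p below 0.05. Tbxa2r, for example, was at 1.34 ± 0.309 CPM in cKO and 1.22 ± 0.279 CPM in WT, a difference within the spread of either genotype.

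Other filament proteins and the machinery of contraction were compared in lists written with the members' results known. Over all genes tested, 53.4% were higher in cKO, and 3.2% were higher and 6.34% lower at an unadjusted edgeR p below 0.05. Of 16 filament partners 13 were higher in cKO and 3 lower. Their median log2 fold change was 0.08, and 5 reached an unadjusted edgeR p below 0.05, all 5 of them higher. Tpm2 was at 10.3 ± 1.83 CPM in cKO and 6.73 ± 1.28 CPM in WT (log2 fold change 0.61, edgeR adjusted p = 0.308). Flna was at 156 ± 13.3 CPM in cKO and 132 ± 14.3 CPM in WT (0.25, edgeR adjusted p = 0.353), and Tpm1, a tropomyosin that many cell types use, was at 147 ± 6.04 CPM in cKO and 144 ± 6.84 CPM in WT (0.03). Tpm1 and Cald1 (caldesmon, log2 fold change 0.09) were chosen after their values were seen. The summed level of the list ran from 1211 to 1285 CPM in cKO and from 1100 to 1256 CPM in WT, and overlapped.

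The 23 tested of 24 genes that control contraction leaned the other way, with 7 higher, 16 lower and a median of -0.05 on the log2 scale. Pln, phospholamban, which restrains the calcium pump of the sarcoplasmic reticulum, was at 3.43 ± 0.501 CPM in cKO and 1.90 ± 0.560 CPM in WT, with no overlap and a log2 fold change of 0.85 (edgeR adjusted p = 0.272). Ryr2 (-0.28), Rock2 (-0.14) and Itpr1 (-0.22), a calcium release channel, a kinase that holds contraction and the receptor for inositol trisphosphate, had edgeR adjusted p of 0.363, 0.365 and 0.365. These last genes are strongly expressed by neurons: Itpr1 was at 436 ± 49.05 CPM in cKO and 508 ± 35.4 CPM in WT. Their values therefore do not describe smooth muscle alone.

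Among 21 tested of 22 regulators 12 were higher, which is 57.1% and near the share of all genes, and 9 lower, with a median of 0.08. Srf, serum response factor, was at 43.9 ± 3.44 CPM in cKO and 43.1 ± 3.09 CPM in WT, and its coactivator Mkl1 at 92.6 ± 3.59 CPM in cKO and 93.5 ± 3.23 CPM in WT. These 2 genes were chosen after their values were seen, and neither differed by more than its spread. Myocd, myocardin, the coactivator of Srf in smooth muscle, was at 0.318 ± 0.109 CPM in cKO and 0.248 ± 0.107 CPM in WT, also within the spread (log2 fold change 0.38 ± 0.31, SE; edgeR adjusted p = 0.748). Notch3, a receptor that matures arterial smooth muscle, was at 21.3 ± 1.94 CPM in cKO and 16.8 ± 2.03 CPM in WT, a log2 fold change of 0.34 (edgeR adjusted p = 0.314). The other regulators named by their p-value were Mkl2 (-0.12), Tbx18 (0.38) and Hey2 (0.39), with edgeR adjusted p of 0.352, 0.395 and 0.451.

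The paralogs of the members in other cell types gave a median of 0.01 over 18 tested of 23, with 12 higher and 6 lower. Actg1, a cytoplasmic actin, was at 935 ± 19.0 CPM in cKO and 934.8 ± 35.0 CPM in WT. Myh9, a non-muscle myosin, was at 149 ± 7.47 CPM in cKO and 148 ± 12.6 CPM in WT, and Acta1, the skeletal actin, at 3.86 ± 0.446 CPM in cKO and 3.80 ± 0.489 CPM in WT. These 3 were chosen after their values were seen, and each differed by less than its SD. Vim, vimentin, had the smallest p of this list, with a log2 fold change of 0.31 (edgeR adjusted p = 0.343), and Gfap (0.14) and Nes (-0.16) reached an unadjusted p below 0.05. Skeletal and cardiac muscle genes, 9 tested of 14, had 5 higher and 4 lower and a median of 0.14, with sums of 16.2 to 23.8 CPM in cKO and 17.7 to 20.45 CPM in WT. Ttn, Mylpf and Myh7 (log2 fold changes -0.45, 0.30 and 0.14) had edgeR adjusted p of 0.547, 0.635 and 0.758.

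Markers of vessels and of tissue that can adhere to the hippocampus are given here as counts and summed levels, and their part in the members' difference was not tested. Of 13 other vascular smooth muscle markers 13 were higher in cKO, with a median of 0.25 and summed levels of 96.4 to 111 CPM in cKO and 89.6 to 97.7 CPM in WT. Mustn1 was at 1.86 ± 0.444 CPM in cKO and 1.08 ± 0.166 CPM in WT, with no overlap (log2 fold change 0.78, edgeR adjusted p = 0.268). Map3k7cl (0.80), Rbpms (0.41) and Rasl12 (0.38) had edgeR adjusted p of 0.308, 0.339 and 0.343. Mcam (0.05) and Cspg4 (0.07), surface proteins shared by smooth muscle and pericytes and chosen after their values were seen, differed by less than their spread.

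Of 12 pericyte markers 8 were higher and 4 lower, with a median of 0.09 and sums of 333 to 386 CPM in cKO and 321 to 337 CPM in WT. Rgs5 and Vtn (log2 fold changes 0.10 and 0.20) had edgeR adjusted p of 0.498 and 0.52. Of 12 endothelial markers 11 were higher and 1 lower, with a median of 0.09 and sums of 385 to 442 CPM in cKO and 371 to 404.5 CPM in WT. Slc2a1, the glucose transporter of the blood-brain barrier, had a log2 fold change of 0.15 (edgeR adjusted p = 0.399), and Cldn5, the claudin of brain endothelium, was at 30.3 ± 3.55 CPM in cKO and 30.1 ± 3.46 CPM in WT. All 8 arterial endothelial genes were higher, with a median of 0.34; their sums were 60.2 to 86.3 CPM in cKO and 59.3 to 62.2 CPM in WT, with cKO 4 at the top. Bmx, a kinase of arterial endothelium, was at 1.77 ± 0.459 CPM in cKO and 1.22 ± 0.137 CPM in WT (log2 fold change 0.53, edgeR adjusted p = 0.357), and Vegfc and Gja4 had 0.29 each (edgeR adjusted p = 0.449 and 0.463).

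All 12 fibroblast markers of the meninges were higher, with a median of 0.32 and overlapping sums of 377 to 602 CPM in cKO and 216 to 562 CPM in WT. Col6a1 (0.57), Fbln1 (0.42), Fmod (0.50) and Col1a1 (0.30) had edgeR adjusted p of 0.375, 0.451, 0.552 and 0.608. All 10 choroid plexus genes were higher by a median of 0.32, but their sums spanned 56.3 to 5571 CPM in cKO and 86.5 to 8337 CPM in WT. Calml4 and Otx2 (log2 fold changes 0.32 and 0.36) had edgeR adjusted p of 0.907 and 0.916. No marker of any of these cell types was at 0 in every library.

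**Figure D4:**
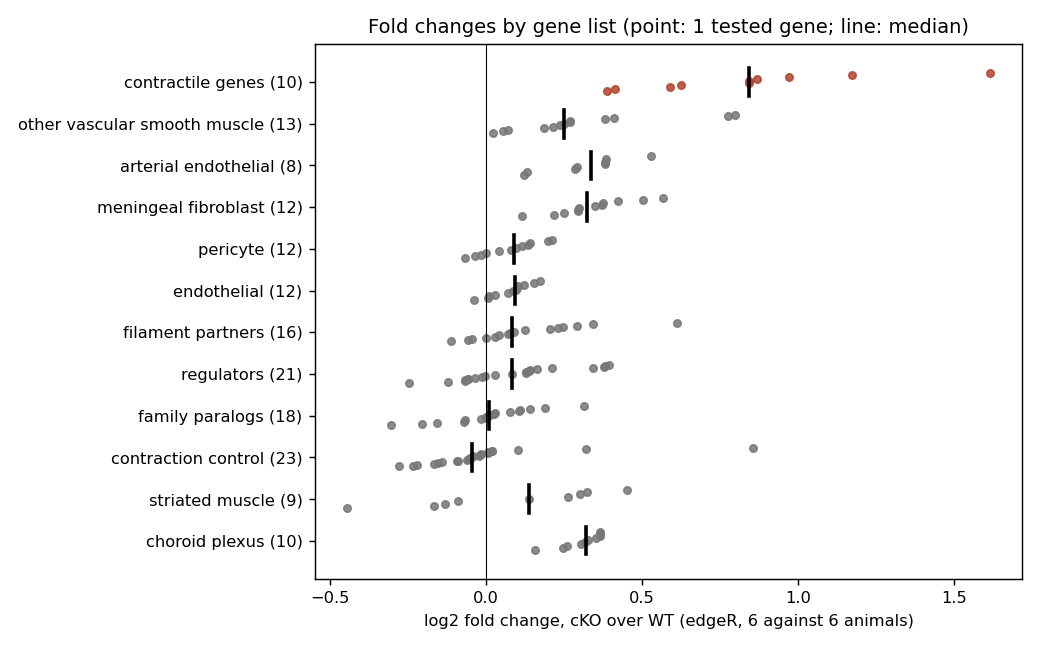
Log2 fold change of cKO over WT (horizontal axis) for each tested gene of the 10 contractile genes and 11 other lists (rows, with the number tested); each point is 1 gene and the vertical bar is the list's median. The contractile genes have a median of 0.84, arterial endothelial genes 0.34, meningeal fibroblast genes 0.32, other vascular smooth muscle markers 0.25, and pericyte and endothelial markers 0.09 each.

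In edgeR 0 genes of the 11 other lists passed at an adjusted p below 0.05, and the numbers at an unadjusted p below 0.05 were 5 higher among filament partners, 2 higher and 5 lower in contraction control, 3 and 1 among regulators and 6 and 0 among other smooth muscle markers. They were 2 higher and 1 lower among paralogs, 4 higher among arterial genes, 2 higher each among pericyte, endothelial and fibroblast markers, and 0 among choroid plexus and striated muscle genes. DESeq2 passed 4 genes of these lists, Pln (adjusted p = 0.00338), Tpm2 (0.00859), Mustn1 (0.00859) and Notch3 (0.026), all 4 higher in cKO. Without cKO 4, WT 2 and WT 3 the medians were 0.21 for other smooth muscle markers, 0.21 for arterial endothelial genes, 0.09 for fibroblasts, 0.04 for endothelium, 0.00 for pericytes and 0.07 for choroid plexus. The numbers higher at an unadjusted edgeR p below 0.05 were then 0 among arterial, endothelial, pericyte and fibroblast genes. They were 5 among other smooth muscle markers, 4 among filament partners and 1 among regulators, beside 459 of the 19591 genes tested in that set. With fewer animals that p is harder to reach, so the lower counts cannot be read as a result about these tissues. Without cKO 1 the medians were 0.25 for other smooth muscle markers, 0.27 for arterial genes, 0.24 for fibroblasts and 0.06 for pericytes.

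Acta2 was then set against 1 gene for each of these tissues and 2 regulators over the same deviations, as a family of 7 relations. None passed after adjustment. Cldn5 had the smallest unadjusted permutation p (r = 0.61, permutation p = 0.0476, adjusted 0.276; rho = 0.46, adjusted 0.302; r = 0.68 without the 2 farthest animals). Myocd followed (r = 0.54, permutation p = 0.0967, adjusted 0.276; rho = 0.45), with 0.30 without those animals. Ttr was correlated over the 9 libraries high in it, since the other 3 stand apart (r = 0.64, permutation p = 0.119, adjusted 0.276; rho = 0.68). Its r and rho were the highest of the 7. Without the 2 of those 9 farthest from the median of Acta2, its r was 0.75. Each r without 2 animals used deviations that were not centred again, and can carry part of the contrast between genotypes. Dcn, a fibroblast proteoglycan, had r = 0.41 and rho = 0.50 (adjusted permutation p = 0.343 and 0.302). Kcnj8, a pericyte potassium channel, had r = 0.24 and rho = 0.20, Notch3 r = 0.19 and rho = 0.11, and Bmx r = 0.13 and rho = 0.07. At 12 animals a p above the threshold does not show that these genes vary independently of Acta2.

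The targeted cluster spans chromosome 12 from 109709060 to 109743795 (GRCm38), where the RefSeq table lists 36 hairpins with 71 mature miRNAs and 64 different seeds (bases 2 to 8). Matches to these seeds in the longest annotated 3′ UTR were counted because the cKO lacks these miRNAs in Emx1 lineage cells. At least 1 match stood in 9 of 10 members, and in 89.3% of the 15276 genes tested that have a 3′ UTR. The median density was 3.39 matches per kilobase in members, against 3.97 in all of these genes, and the members ran from 0 at Actg2 to 13.5 at Myh11. Acta2 had 4 matches in 577 bases and Myh11 had 7 in 517, whereas Cnn1 had 4 in 1399, Smtn 1 in 325 and Actg2 0 in 80. The miRNA miR-381-3p is shown with its match in Acta2, and miR-134-5p, one of the best studied of the cluster, with its matches in Myh11 and Myl9. Capitals mark the seed in the miRNA and the 7 bases that pair with it in the message.
miR-381-3p: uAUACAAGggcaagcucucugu
Acta2 site for miR-381-3p: gcgtataggaCTTGTATagattacata
miR-134-5p: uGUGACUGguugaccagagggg
Myh11 site for miR-134-5p: tcaggagccaCAGTCACcagcaacttt
Myl9 site for miR-134-5p: gaccccatccCAGTCACctacctcccc
A match is a stretch of letters and not evidence that the miRNA acts there. Whether loss of the miRNAs has a part in the members' difference was not tested.

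Reads of some members cannot be separated from those of neighbours, since no source used here gives the strand setting of the counting. The longest single exon overlap of Tagln (chr9:45929619-45936058, minus strand) with Gm48529 on the opposite strand was 645 bases. Of the 31-base words of Tagln, 58.3% also occur in Gm48529. That gene had 54 to 90 counts per library, against 273 to 990 for Tagln. Pcsk7 held 3.93% of the words of Tagln, and 62.2% occurred in any other gene. Smtn shares 12% of its words with the opposite-strand gene Gm11946 (0 to 3 counts per library) and Des 5.12% with Gm15179 (0 to 2 counts). Mylk (chr16:34745210-35002420, plus strand) shares 3.87% with E130310I04Rik. Acta2 (chr19:34241090-34255590, minus strand) and Actg2, close relatives of the other actins, share 1.39% and 1.21% of their words with other genes, Myh11 0.905%, Myl9 0.412% and Cnn1 and Lmod1 0%. Splitting of reads between paralogs thus touches few bases of these 6 genes.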

How the data were processed

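The authors deposited expected counts for each gene symbol, in 1 unscaled column per animal. The submitters' processing notes name Salmon 1.3.0 and the build GRCm38 for these estimated counts; no source used here gives the strand setting or the annotation. Values were rounded to whole numbers, since 24.8% to 25.9% of a library's values were not whole.

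The comparison of cKO with WT used edgeR 4.0.16 (R 4.3.3), its quasi-likelihood test, TMM scaling, filterByExpr (a count minimum of 10, a total of 15) and Benjamini-Hochberg adjustment over all genes tested, at 0.05. DESeq2 1.42.0, limma-voom (limma 3.58.1), other scalings and filters, a replicate block and each animal left out were the alternatives. Each p-value reflects how far animals of a genotype differ, the labels giving each animal a number of its own. No 2 libraries of a genotype agreed within counting noise, the lowest chi-square per degree of freedom being 8.51.

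Correlations used log2 CPM with a prior count of 2, minus the genotype mean, with 100000 permutations within genotype, or all 720 pairings within 1 genotype, in numpy. Positions and UTRs came from the GENCODE annotation of GRCm38, and promoter and miRNA sequences from RefSeq tables of GRCm38.p6.

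The members and all 12 gene lists were chosen with earlier results of these data known. Named were all members, up to 4 genes with the smallest p in each list, the 8 genes most like the members' pattern, 7 marker or regulator genes, Emx1 and B830012L14Rik. Other names are said to have been chosen after their values were seen.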

Additional observations from a re-analysis of the deposited data

Results flagged for a closer look

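In 6 of 132 groups of 6 animals, over 66 genes, 1 animal lay far from the other 5 (by Dixon's criterion on its gap to the nearest animal, relative to the group's range). Chance sets apart about 1 in 20 groups, and none of the 20 groups formed by the 10 contractile genes was among them. B830012L14Rik in the library labelled cKO 1 was at 0.788 CPM, with the other cKO animals at 17.4 to 25.8 CPM. Emx1 in the same library was at 9.14 CPM, with the others at 5.91 to 6.84 CPM. In cKO 4 the choroid plexus genes Aqp1 (1.03 CPM, others 18.0 to 26.7 CPM) and Cldn2 (0.802 CPM, others 21.7 to 31.6 CPM) were low. Esam, an endothelial adhesion gene, was at 13.7 CPM in WT 4, with the others at 11.02 to 11.7 CPM. Myh7, a slow muscle myosin, was at 14.2 CPM in WT 6, with the others at 10.7 to 11.4 CPM.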

How the results depend on the processing

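Of 209 recomputed fold changes of single members, 209 kept their sign and moved by less than the within-genotype SD. Most came from leaving out 1 animal, which moves a mean of 6 by only part of the SD. That limit could therefore hardly be missed, and nothing is concluded from it. The members' median log2 fold change stayed between 0.75 and 0.90, and between 0.76 and 0.90 when 1 animal was left out. The median within-genotype correlation stayed between 0.73 and 0.84. The number of genes past the edgeR threshold, 2 with all 12 animals, was less stable. It was 1 without a low-count filter, 1 with a minimum of 1 CPM, 0 without cKO 4, WT 2 and WT 3, 85 in DESeq2 and 0 in limma-voom. Leaving out 1 animal at a time gave 0 to 6 genes, with 6 when the library labelled cKO 1 was left out. Genes of the other lists past the threshold numbered 0 in edgeR and 4 in DESeq2. The cause of these differences was not tested. With animal number as a replicate block the count was 0, and the members' median was 0.85. No pairing by number was seen over all genes tested: correlations between same-numbered animals ran from -0.27 to 0.25, and 1 of 6 animals correlated best with its own number. Such values cannot exclude a weaker pairing. Without Actg2, a choice made after the data were seen, the median fold change was 0.84 and the median correlation 0.80. Low counts limit Actg2, at 0 to 19 per library.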
